A study of Drosophila melanogaster with 2 samples.

Results

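The genes that encode the structural proteins of the insect cuticle were examined in a map of chromatin bound by CG7745-GFP in Drosophila melanogaster embryos. They were chosen by name from the Ensembl annotation of build dm6: protein-coding genes whose symbol is Cpr, Lcp, Ccp or Edg followed by a digit, or starts with Twdl. The rule took 120 of 13945 protein-coding genes on the 6 main chromosome arms, and the other 13825 served as the comparison. Of the 120, 70 were Cpr genes, 15 Lcp, 7 Ccp, 3 Edg and 25 Twdl, and 46 lay on arm 3L, 33 on 3R, 27 on 2R, 8 on X and 6 on 2L. The labels describe 2 ChIP-seq libraries, biological replicates 2 and 3, from whole embryos aged 0 to 12 hours of 1 stable transgenic line in which CG7745 carries GFP at its C-terminus. The protein was recovered with an antibody against GFP according to the description in the labels, whose antibody field names CG7745 instead. The promoter that drives the fusion is not stated in the labels. There was 1 group, so no second condition was compared. The data are peak lists: 30000 peaks from each replicate, 30000 from both pooled, and 1874 peaks that passed the irreproducible discovery rate (IDR) filter. Read depth is unknown, and whole embryos mix all tissues, so binding in few cells and weak binding in many cannot be told apart.

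The cuticle is the outer skeleton that the epidermis secretes, a layered composite of chitin fibres and proteins. Most Cpr, Lcp, Ccp and Edg proteins carry the Rebers-Riddiford domain, which binds chitin. Lcp genes were named from larval cuticle, Ccp84A genes form a cluster in the Antennapedia complex, and Edg genes were found by their response to the moulting hormone ecdysone. Tweedle (Twdl) proteins form a separate family, and mutant TwdlD makes larvae and pupae short and stout. The embryonic epidermis lays down the first larval cuticle late in embryogenesis, and further sets of these genes are used at each moult.

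Most of these genes have a compact promoter with a TATA box. The sequence TATAAA, read along the gene's strand from position -45 to -16 relative to the gene's 5′ end, was present in 73 of 120 cuticle protein genes (60.8%, exact 95% interval 51.5 to 69.6%) and in 1147 of 13825 other genes (8.3%, interval 7.84 to 8.77%). The share was 39 of 70 in Cpr, 11 of 15 in Lcp, 5 of 7 in Ccp, 3 of 3 in Edg and 15 of 25 in Twdl genes. The promoters below show the box for a gene of each family that had one. For Cpr, Ccp, Edg and Twdl it is the first such gene in order along the arms. Lcp1 and Lcp4 come before Lcp65Ag3 and also had the box, but their sequences are not given here. Each runs 5′ to 3′ along the gene from 80 bases before the start to 20 bases from it, in the RefSeq copy of the dm6 genome, with the TATA sequence in capitals. They are Cpr23B at chr2L:2838331-2838430 (plus strand), Lcp65Ag3 at chr3L:6130970-6131069 (minus strand), Ccp84Ag at chr3R:6686648-6686747 (plus strand), Edg78E at chr3L:21297784-21297883 (minus strand) and TwdlE at chr2L:7860820-7860919 (minus strand).
Cpr23B: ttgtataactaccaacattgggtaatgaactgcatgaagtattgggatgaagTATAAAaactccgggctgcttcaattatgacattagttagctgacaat
Lcp65Ag3: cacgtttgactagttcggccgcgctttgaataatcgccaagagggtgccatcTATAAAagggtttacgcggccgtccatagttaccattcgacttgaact
Ccp84Ag: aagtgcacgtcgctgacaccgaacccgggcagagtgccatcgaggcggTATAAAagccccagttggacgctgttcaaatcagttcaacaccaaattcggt
Edg78E: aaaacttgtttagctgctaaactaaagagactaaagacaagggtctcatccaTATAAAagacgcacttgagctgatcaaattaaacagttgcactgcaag
TwdlE: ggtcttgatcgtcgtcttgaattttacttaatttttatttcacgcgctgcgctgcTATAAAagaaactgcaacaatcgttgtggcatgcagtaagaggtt
The box began at -28 in Cpr23B, Lcp65Ag3 and Edg78E, at -32 in Ccp84Ag and at -25 in TwdlE. The nearest summit of the pooled list lay 1480 bp from the start of Cpr23B, 1237 bp from Lcp65Ag3 and 2919 bp from Ccp84Ag. For Edg78E it lay at 1172 bp and for TwdlE at 1030 bp. None of the 5 promoters thus held one. Part of the sequence around the Lcp65Ag3 start is not unique in the genome, a limit given below.

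In promoters from 250 bases before the start to 50 from it, both strands searched, other short sequences differed less or were rarer. The whole promoter held TATAAA in 75% of cuticle protein genes and 45.5% of other genes. The initiator core TCAGT was in 52.5 and 51.5%, and GAGAG, part of the GAGA factor site, in 30.8 and 29.7%. The DNA replication-related element TATCGATA was in 1 of 120 cuticle protein genes (0.833%) and 9.43% of other genes. GGTCACAC, the core of a motif common at housekeeping promoters, was in 0 of 120 (interval 0 to 3.03%) and 7.77%. AACCNGTT, a Grainy head site, was in 6.67 and 4.59%. None of the 6 sequences contains another. A match is only a match of letters. Of the other protein-coding genes, those with TATAAA at the TATA box position also had fewer pooled summits within 500 bp of a start (251 of 1147, 21.9%) than those without (6249 of 12678, 49.3%).

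No cuticle protein gene had a reproducible CG7745-GFP peak at its start, and few had any peak there. Genes were counted by annotated transcription start site (TSS): a summit no more than 500 bp from at least 1 TSS of a gene put it in the count. In the IDR list, 0 of 120 cuticle protein genes counted (exact 95% interval 0 to 3.03%), and of other protein-coding genes 6.37% did (881 of 13825). In the pooled list 9 of 120 counted (7.5%, interval 3.49 to 13.8%), against 47.0% of other genes (interval 46.2 to 47.9%).

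The replicates gave like shares. In replicate 2, 6 of 120 cuticle protein genes had a summit (5%, interval 1.86 to 10.6%), against 44.9% of other genes. In replicate 3, 10 of 120 had one (8.33%, interval 4.07 to 14.8%), against 47.2% of other genes. No cuticle protein gene had summits of both replicates within 100 bp of each other (0 of 120, interval 0 to 3.03%), against 23.7% of other genes. The intervals cover the counting of genes only. They treat neighbouring genes as separate, although a cluster of genes can share a peak or a stretch without one. With 2 samples in 1 group there was no test over samples, so these shares are a description of these lists.

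**Figure D1:**
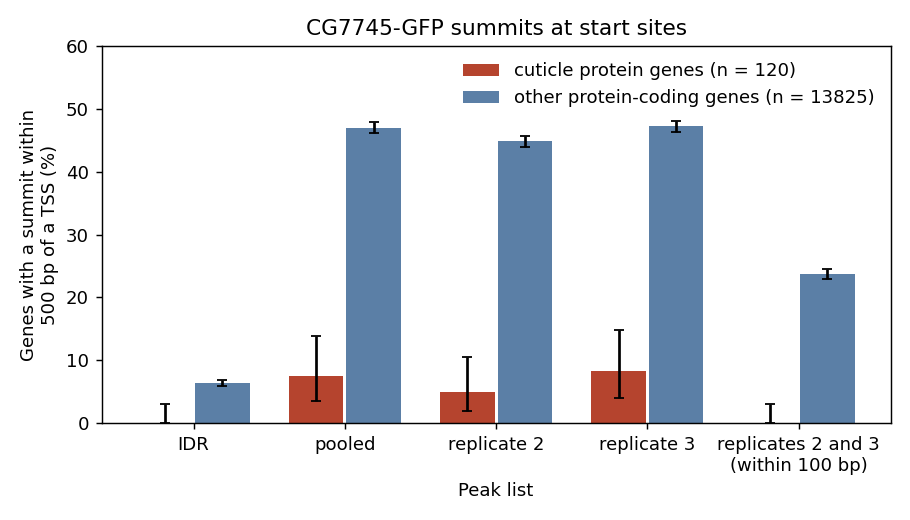
Bars give the percentage of genes with a peak summit within 500 bp of a TSS in each list, for 120 cuticle protein genes and 13825 other protein-coding genes, with exact 95% binomial intervals. The cuticle protein genes stand at 0% in the IDR list and in both replicates together, and at 5 to 8.33% in the other lists, where other genes stand at 44.9 to 47.2%.

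In all, 16 cuticle protein genes had a summit in the pooled list or in a replicate, and 104 had none in any list. Over the replicate lists alone, 14 of 120 had one in at least 1 (11.7%, interval 6.53 to 18.8%), against 55.9% of other genes. Of the 16, 14 were Cpr genes, and the others were TwdlE and Lcp9, each in replicate 3 alone. No Ccp or Edg gene had a summit in any list. The genes named in the next paragraphs beyond the 3 best pooled ranks are the rest of these 16, named after their values were seen so that each is accounted for.

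Cpr78Cb (FBgn0037068, 3L), of the small cluster that also holds Edg78E, had the best pooled rank among the cuticle protein genes. Its pooled peak (chr3L:21293939-21294334) had a signal of 56.2, on the peak caller's own scale, and ranked 9581 of 30000, with its intergenic summit 355 bp upstream of a start. In replicate 2 the summit lay 224 bp upstream with a signal of 42.6 (rank 3354). In replicate 3 a summit with a signal of 30.1 (rank 14461) lay 281 bp upstream of another start of the gene, 847 bp from that of replicate 2. Both libraries thus had a peak at the gene, but not at the same place. Its neighbour Cpr78Ca had a summit in replicate 2 alone (signal 16.2, rank 23766), in its coding exon at 495 bp. The deposited −log10 q at Cpr78Cb was 1.58 in the pooled list, 2.63 in replicate 2 and 1.22 in replicate 3. At all other pooled summits counted for cuticle protein genes it ran from 0.472 to 0.963, so those peaks were weakly called. The strongest of them had a signal of 43.5, and the median over all pooled peaks was 44.3. Such weak calls are thus not particular to these genes.

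Cpr47Eg (FBgn0086519) had a pooled summit in its coding exon, 400 bp downstream of the start (signal 43.5, rank 15520). Replicate 2 had a summit 6 bp away with a signal of 16.7 (rank 22857), and the nearest of replicate 3 lay 1654 bp away. Cpr73D (FBgn0036680) had the pooled summit closest to any start, 19 bp downstream in its 5′ UTR (signal 39.2, rank 18409), and another at 222 bp (signal 37.7). Both were also summits of replicate 2, with signals of 24 and 33.6. They lay within 500 bp of a start of Ogdh too, which encodes the 2-oxoglutarate dehydrogenase of the citric acid cycle. Replicate 3 had its summit at another start of Cpr73D, 266 bp upstream (signal 21.7, rank 24734). Cpr78Cb and Cpr73D were the only cuticle protein genes with a summit in both replicate lists, at any distance from each other. They make up 1.67% of the 120 (interval 0.202 to 5.89%), against 36.1% of other genes.

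The remaining pooled summits came with 1 replicate or none. Cpr65Az and Cpr65Ay, at 1 end of the large 65A cluster, had pooled signals of 39.8 (287 bp upstream) and 39.7 (437 bp downstream, in the coding exon). Both had a replicate 3 summit in the window, with signals of 29.4 and 19.6. Cpr65Av had a pooled signal of 36.3 at 444 bp upstream and a replicate 3 signal of 29.6, 1 bp from it. Cpr51A had a pooled signal of 34.2 at 166 bp upstream and a replicate 3 signal of 22.6 at 27 bp upstream. None of these 4 had a replicate 2 summit in its window. Cpr65Ec (signal 36.7, in its coding exon) and Cpr67Fb (signal 29.2) had a pooled summit and no replicate summit in the window. The Cpr67Fb summit, 479 bp upstream in the antisense gene asRNA:CR45171, was the outermost one counted, and replicate 3 had a summit 29 bp further out with a signal of 29.5. The nearest one not counted was 595 bp from Lcp9, followed by 636 bp from Edg84A and 683 bp from Lcp65Ae.

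Other summits were seen in 1 replicate and not in the pooled list. Replicate 2 had them at Cpr11A (signal 17.3, 347 bp upstream) and at Cpr57A (signal 15.7, in the 5′ UTR of Obp57d, an odorant-binding protein gene). Replicate 3 had them at Cpr100A (signals 24.1 and 21.1), TwdlE (22, in its coding exon), Lcp9 (21.9, also at CG3594) and Cpr64Aa (21.2). The lowest signal in the lists was 13.7 in replicate 2 and 18.9 in replicate 3, and these peaks ranked 21224 to 25831 of 30000.

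The sequence under 3 of the intergenic pooled summits is shown because these are the strongest upstream peaks of the group whose sequence is given here. Each is 101 bases of the RefSeq copy of dm6, 5′ to 3′ along the gene's strand, with the 11 bases centred on the summit in capitals. They lie at chr3L:21294087-21294187 (plus strand) for Cpr78Cb, chr3L:6160477-6160577 (plus strand) for Cpr65Az and chr3L:6140368-6140468 (minus strand) for Cpr65Av.
Cpr78Cb: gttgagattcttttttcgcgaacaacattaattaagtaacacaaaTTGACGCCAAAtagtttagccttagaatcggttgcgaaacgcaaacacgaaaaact
Cpr65Az: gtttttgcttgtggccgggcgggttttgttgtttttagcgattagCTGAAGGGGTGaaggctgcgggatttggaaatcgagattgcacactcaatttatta
Cpr65Av: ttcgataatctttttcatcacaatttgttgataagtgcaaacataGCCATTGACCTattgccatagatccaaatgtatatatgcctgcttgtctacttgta
None of the 6 short sequences searched in the promoters occurred in these windows, and G and C made up 35.6, 45.5 and 33.7% of their bases.

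Summits at other genes reached ranks that those at cuticle protein genes did not. By the strongest summit in each gene's window, 0 cuticle protein genes stood among ranks 1 to 5000 of the pooled list. Of other genes, 3.49% had their best summit in the first 1000 ranks, 2.89% in the next ranks up to 1874, and 9.23% from there to rank 5000. Beyond rank 5000 and up to 10000 stood 1 cuticle protein gene (0.833%), against 10.8% of other genes. Beyond rank 20000 stood 4 (3.33%), against 7.62% of other genes. In replicate 2, 2 cuticle protein genes stood within rank 10000 (Cpr78Cb and Cpr73D), and in replicate 3 none did. Of other genes, 3.58, 2.71, 8.29 and 9.33% stood in the same successive ranges up to rank 10000 in replicate 2. In replicate 3 these shares of other genes were 3.45, 3.13, 9.22 and 10.9%.

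The distance to the nearest summit was longer for cuticle protein genes over several kilobases. Its median in the pooled list was 7.11 kb (quartiles 1.93 and 20 kb) for cuticle protein genes and 0.632 kb (quartiles 0.107 and 6.21 kb) for other genes. In replicate 2 the medians were 6.77 and 0.722 kb, and in replicate 3 they were 6.47 and 0.625 kb. Within 2 kb of a start, 26.7% of cuticle protein genes had a pooled summit (interval 19 to 35.5%), against 62.1% of other genes. Within 10 kb the shares were 60% (interval 50.7 to 68.8%) and 80%, and within 50 kb they were 90% and 94.9%. IDR summits lay within 10 kb of 10% of cuticle protein genes (interval 5.27 to 16.8%) and of 27.3% of other genes, and within 50 kb of 60.8% (interval 51.5 to 69.6%) and 67.1%.

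**Figure D2:**
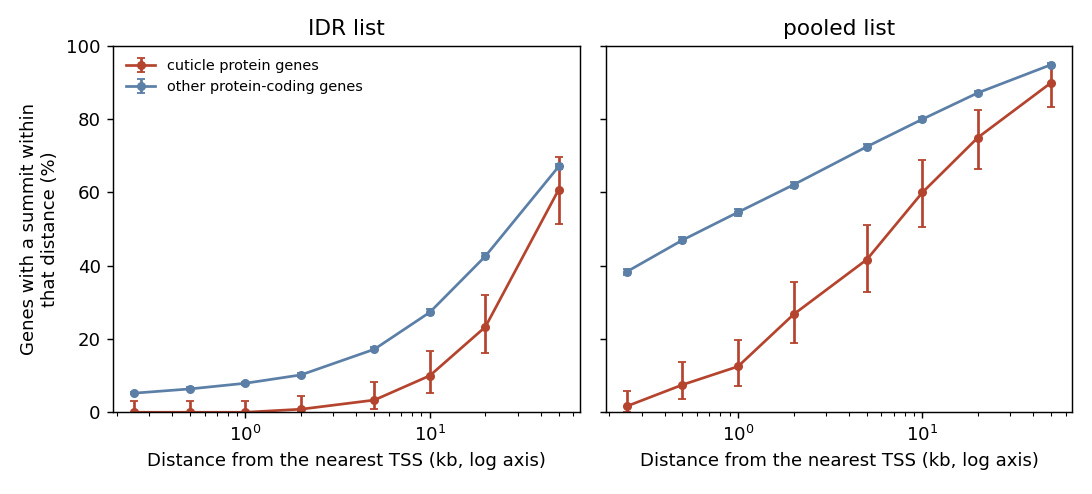
Percentage of genes (vertical axis) with a summit within a given distance of a TSS (horizontal log axis, kb), for the IDR list on the left and the pooled list on the right, with exact 95% binomial intervals. For cuticle protein genes the pooled share rises to 12.5% at 1 kb and 90% at 50 kb, and for other genes it stands at 54.6% at 1 kb and 94.9% at 50 kb.

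The lack of summits around the starts was seen in both libraries as a broad trough and not as a narrow dip. In the 2 kb before the start, replicate 2 held 0.104 summits per kb and gene at cuticle protein genes and 0.388 at other genes. In the 2 kb from the start it held 0.1 and 0.336. In replicate 3 the values were 0.104 and 0.401 before the start, and 0.075 and 0.329 from it. Other genes thus had a peak of summits at the start above a level of about 0.28 further out, and cuticle protein genes had no such peak. Neighbouring genes of a cluster count the same summits more than once here.

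**Figure D3:**
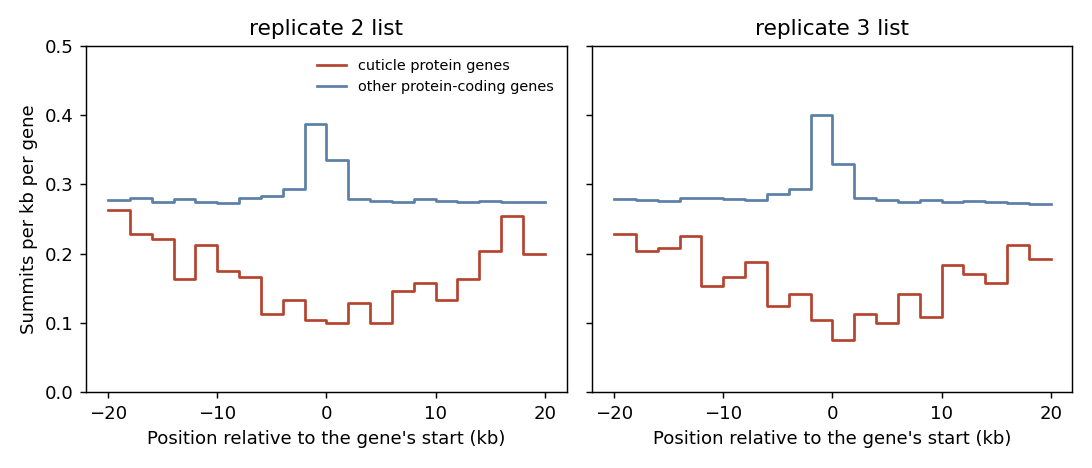
Summits per kb and gene (vertical axis) in 2 kb steps of position relative to the gene's 5′ end (horizontal axis, kb, negative upstream), for replicate 2 on the left and replicate 3 on the right. Other genes peak just upstream of the start at 0.388 and 0.401, where cuticle protein genes stand at 0.104 in both replicates.

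The nearest pooled summit lay at different median distances in the families. The median distance was 5.21 kb for the 70 Cpr genes, 4.4 kb for the 15 Lcp genes, 6.43 kb for the 7 Ccp genes and 1.17 kb for the 3 Edg genes. For the 25 Twdl genes it was 49.6 kb (quartiles 11.6 and 60.4 kb), but 13 of them lay in a single stretch without summits, and the median of the other 12 was 10.8 kb (range 1.03 to 62.6 kb). Edg84A, Edg78E and Edg91 had their nearest pooled summits at 636, 1172 and 1377 bp, outside the window. The order of the families rests on few genes and few clusters, and the ranges of Cpr, Lcp and Ccp overlap. No test of the differences between families was run.

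**Figure D4:**
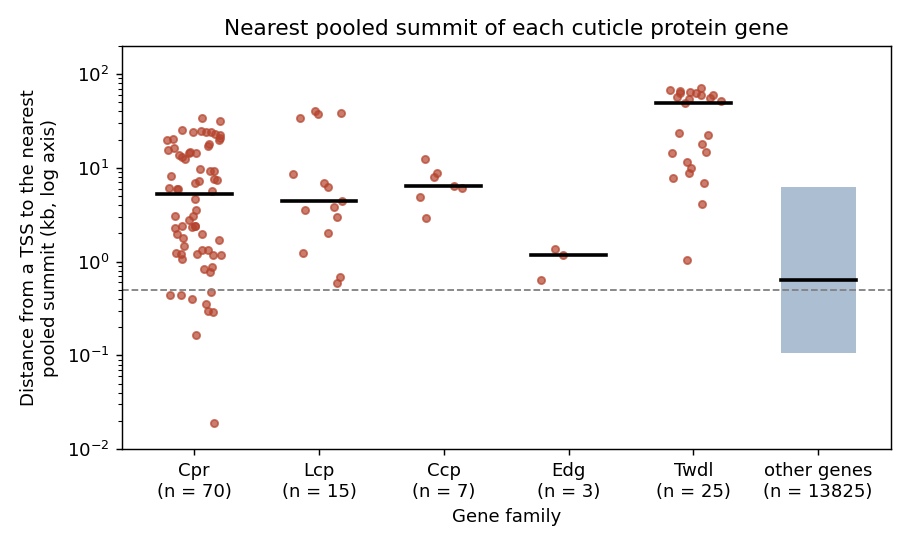
Each point is a cuticle protein gene at the distance from its TSS to the nearest pooled summit (vertical log axis, kb), by family, with black bars at the medians; the box at the right spans the quartiles of 13825 other genes. The dashed line marks 0.5 kb, below which lie only Cpr genes, 9 in number.

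The Tweedle genes at 97C lay in one of the long stretches without summits. The 12 genes between TwdlM and TwdlD, over 20.9 kb of 3R, had no summit in any list between their outer starts. The nearest pooled summits on either side were at positions 26569512 and 26717370, 148 kb apart. This stretch also held TwdlQ and 3 other protein-coding genes. Only 76 of the 29994 stretches between neighbouring pooled summits were as long or longer, and the median stretch was 1.25 kb. In replicate 2 the stretch measured 149 kb, with 52 as long or longer. The other Twdl groups were also free of summits between their starts. They were TwdlF to TwdlV (3 genes, 3R, in a pooled stretch of 57.2 kb) and TwdlX to Twdlalpha (4 genes, X, 23.6 kb).

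Most cuticle protein genes lay in such clusters. Joining genes with at most 20 kb between neighbouring starts gave 16 clusters of 2 or more that held 89 of the 120 genes over 220.2 kb, and 31 genes stood alone. These clusters held 68.1 pooled summits per Mb (15 in number), against 224 per Mb over the whole arms. Replicate 2 had 77.2 per Mb there and replicate 3 had 54.5, each against 224 per Mb over the arms. The IDR list had 1 summit in them (4.54 per Mb), against 14 per Mb over the arms.

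Of the individual clusters, Lcp1 to Lcp4, on 2R, lay in a pooled stretch of 204 kb without a summit. That stretch held 24 other protein-coding genes as well, and 32 of 29994 stretches were as long or longer. Edg84A to Ccp84Aa (8 genes, 19.6 kb on 3R) had no summit between its outer starts in any list, in a pooled stretch of 25.1 kb with no other protein-coding gene. Cpr76Ba to Cpr76Bd (4 genes on 3L) lay in a pooled stretch of 57 kb, and Cpr65Ea to Cpr65Ec (3 genes) in one of 99.8 kb that ended in the Cpr65Ec peak. The largest cluster, Lcp65Ag3 to Cpr65Az, held 17 genes in 29.8 kb of 3L, with 4 pooled summits, 3 of replicate 2 and 5 of replicate 3.

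Genes next to the cuticle protein genes were also seldom at a summit. The 66 distinct nearest protein-coding neighbours from outside the families had a pooled summit within 500 bp in 14 cases (21.2%, interval 12.1 to 33%), and 5 of 66 had summits of both replicates within 100 bp of each other (7.58%, interval 2.51 to 16.8%). These shares lie between those of the cuticle protein genes and of all other genes. Of the 14 other protein-coding genes with a start inside the clusters, 2 had a pooled summit: TpnC47D, a troponin C gene (signal 50.9), and CG33627 (31.1). The count was 4 of 14 in replicate 2 (28.6%, interval 8.39 to 58.1%), where Or49a and CG13297 were added, and 1 of 14 in replicate 3 (7.14%, interval 0.181 to 33.9%). Cuticle protein genes that stood alone had a pooled summit in 2 of 31 cases (6.45%, interval 0.791 to 21.4%), and those in clusters in 7 of 89 (7.87%, interval 3.22 to 15.5%). In replicate 2 the counts were 3 of 31 (9.68%, interval 2.04 to 25.8%) and 3 of 89 (3.37%, interval 0.701 to 9.54%). In replicate 3 they were 5 of 31 (16.1%, interval 5.45 to 33.7%) and 5 of 89 (5.62%, interval 1.85 to 12.6%). The share of lone genes was thus the higher one in both replicates and not in the pooled list, with intervals that overlap in each list.

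Several features of the annotation and the sequence differed between the groups, and their part in the result was not tested. Cuticle protein genes had 1 annotated TSS in 109 of 120 cases (90.8%), against 73.3% of other genes, and 15 had a start of another protein-coding gene within 1000 bp (12.5%), against 43.2% of other genes. Among genes with 1 TSS and no other start within 1000 bp, a pooled summit was found at 7 of 98 cuticle protein genes (7.14%, interval 2.92 to 14.2%), against 1754 of 6012 other genes (29.2%). With TATAAA at the TATA box position as well, the counts were 4 of 65 (6.15%, interval 1.7 to 15%) and 118 of 679 (17.4%, interval 14.6 to 20.4%). The gap between the groups was thus smaller among such genes than over all genes. The 1001 bp windows of cuticle protein genes were somewhat richer in G and C (median 46 against 42.3%). Whether G and C content goes with having a summit was not examined.

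Some windows around the starts were not unique in the genome. How reads that match several places were treated is not given in the sources used here. All 31-base words of the 1001 bp window occurred only once in the genome for 92 of 120 cuticle protein genes. Such windows were found for 12446 of 13825 other genes. The 92 were 63 of 70 Cpr, 5 of 15 Lcp, 3 of 7 Ccp, 3 of 3 Edg and 18 of 25 Twdl genes. Of these 92, 9 had a pooled summit (9.78%, interval 4.57 to 17.8%), against 6109 of 12446 other genes with such windows (49.1%). The least unique windows were those of Lcp65Ab1 and Lcp65Ab2 (9.58% of words unique), Cpr65Ax1 (23.6%) and Cpr65Ax2 (27.9%). Next came Lcp65Ag1 (59.2%), Lcp65Ag2 (61.5%), Lcp65Ag3 (62.4%), Lcp65Aa (67.7%), Ccp84Aa (77%) and Ccp84Ab (78.5%). At genes with such windows a lack of peaks and reads that were not placed there cannot be told apart. The counts of Lcp and Ccp genes without a summit carry this limit.

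The IDR summits closest to cuticle protein genes lay more than 1 kb away. The nearest was 1221 bp upstream of Cpr49Ad (signal 125, IDR rank 1759), at no protein-coding start. The next lay 2397 bp upstream of Cpr67B (signal 179), at a start of eIF4E1, a translation initiation factor gene. Those at 3734 bp from Cpr35B (signal 126) and 5925 bp from Edg91 (signal 507, rank 71) were at no protein-coding start, and that at 3981 bp from Cpr78Cc (signal 545, rank 63) was at CG11309 and CG7632.

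Genes that act on the cuticle without being part of these families had shares that varied from list to list. The lists of such genes were set up from general knowledge, and 102 genes of 5 lists were found in the annotation. Their members also belong to the other 13825 genes, of which 47.0% had a pooled summit. That share was 67.1% for genes with more than 1 TSS and 39.7% for those with 1. The lists were not split by number of starts, and its part in their shares was not tested. Regulators of the epidermis and the ecdysone response had one in 14 of 19 cases (73.7%, interval 48.8 to 90.9%), 11 of them with both replicates within 100 bp (57.9%, against 23.7% of other genes). Those with an IDR summit were grh, the epidermal transcription factor Grainy head (pooled signal 321, replicate 2 signal 127, replicate 3 signal 202), EcR, the ecdysone receptor (189, 98.9 and 108), the GATA factor gene pnr (pooled rank 468, with replicate signals of 102 and 129) and vri, a bZIP factor gene (124, 57 and 73.9). Each signal is that of the strongest summit in the window. An IDR summit was thus found at 4 of 19 regulators (21.1%, interval 6.05 to 45.6%), against 6.37% of other genes.

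Enzymes and assembly factors of chitin had a pooled summit in 14 of 23 cases (60.9%, interval 38.5 to 80.3%). Those with an IDR summit were Chs2, a chitin synthase gene (pooled signal 179, replicate 2 signal 55.3, replicate 3 signal 134), and Gfat2, whose enzyme starts the hexosamine pathway (136, 56.2 and 81.3). The third by rank was exp (75.1, 40.4 and 52.2). The IDR share of this list, 2 of 23 (8.7%, interval 1.07 to 28%), was near the 6.37% of other genes. The epidermal chitin synthase gene kkv had no summit within 500 bp, its nearest pooled one being 17773 bp away. Chitinases and related growth factors had a pooled summit in 6 of 16 cases (37.5%, interval 15.2 to 64.6%). They were led by Idgf4 (156, 56.4 and 89.4), followed by Idgf5 (65.9) and Cht7 (62.5). Only Idgf4 had an IDR summit, 1 of 16 (6.25%, interval 0.158 to 30.2%), against 6.37% of other genes.

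Genes for hardening and pigment enzymes had a pooled summit in 6 of 26 cases (23.1%, interval 8.97 to 43.6%). An IDR summit was found at 1 of 26 (3.85%, interval 0.0973 to 19.6%), against 6.37% of other genes. It was that of yellow-e3 (pooled signal 129, replicate 2 signal 37, replicate 3 signal 92.5). By pooled rank yellow-k (43.1) and yellow-d (42.3) came next. The genes for the dopamine pathway enzymes ple and Ddc had none. Structural proteins outside the named families had 3 of 18 (16.7%, interval 3.58 to 41.4%), namely obst-H (44.3), snsl (41.6) and resilin (38.5), the gene of an elastic cuticle protein. None of those 18 had an IDR summit (interval 0 to 18.5%), against 6.37% of other genes. None had summits of both replicates within 100 bp (interval 0 to 18.5%), against 23.7% of other genes. With 18 genes the IDR interval holds the share of other genes. The intervals of the short lists are wide, and no test between lists was run.

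**Figure D5:**
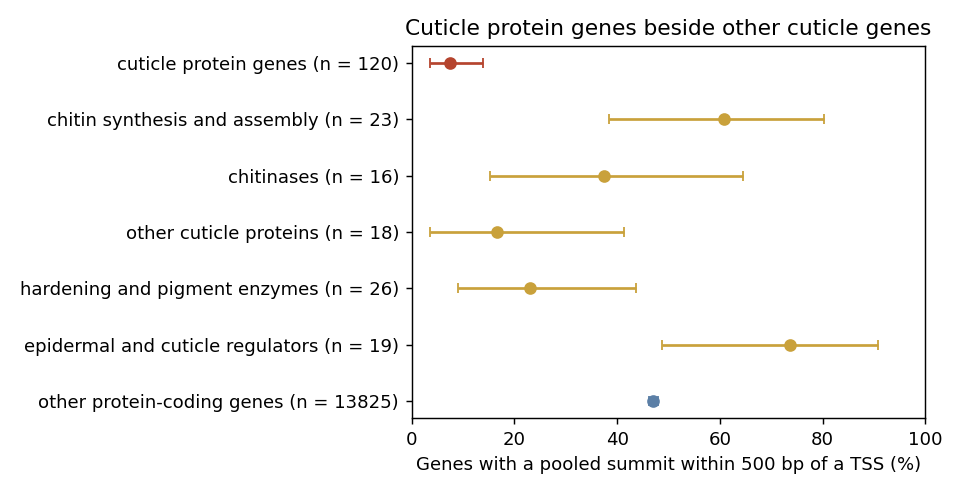
Percentage of genes with a pooled summit within 500 bp of a TSS (horizontal axis) for cuticle protein genes, 5 lists of other cuticle genes and all other protein-coding genes, with exact 95% binomial intervals. Cuticle protein genes stand at 7.5%, structural proteins outside the families at 16.7% and epidermal regulators at 73.7%, with other genes at 47.0%.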

How the data were processed

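Peaks of CG7745-GFP were used as the authors deposited them for 2 samples of 1 group. Per the file descriptions deposited with the lists, peaks of each replicate and of both pooled were called against 1 control alignment on dm6, and the IDR list was derived from those 3 lists. Which aligner, peak caller and thresholds served is not given in the sources used. The deposited signal is the peak caller's value with no stated scale, and it served to rank peaks within a list. The deposited −log10 q was not used to choose peaks. The labels put both libraries in 1 group as biological replicates, from separate biosamples of 1 line. The deposited summit offset gave each peak's position. Both share the control. 19 mitochondrial peaks of replicate 2 were left out.

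Starts came from Ensembl release 115 and sequences from the RefSeq copy of Release 6, whose arm lengths contain all peaks. Of 105 list symbols 1 had no match, and 3 pseudogenes that match the naming rule were left out. The rule for named genes took the 3 best pooled ranks of each family, the 5 genes closest to an IDR summit, the end genes of clusters, and the 3 best and all IDR members of each other list. The rest of the 16 genes with a summit, other genes inside clusters, genes with the least unique windows or nearest outside the window, and kkv, ple and Ddc were named after their values were seen. Except for that of Lcp65Ag3, the promoters shown followed a separate rule of position. The members and lists were chosen with earlier results of these data known. Alternatives were other windows, stronger peaks, the gene's 5′ end alone, genes without close neighbours, clusters counted once, and each replicate left out. Unique windows and the subsets of other genes were chosen after seeing the data. The search was tested on simulated summits: all 200 planted genes were recovered. Intervals are exact (Clopper-Pearson). The scripts ran in Python 3.11.15 with pandas 2.3.3, NumPy 2.4.6 and SciPy 1.17.1, and figures were drawn with matplotlib 3.10.9.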

Additional observations from a re-analysis of the deposited data

How the results depend on the processing

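The share of cuticle protein genes with an IDR summit was 0% with a 1000 bp window too, against 7.92% of other genes. Within 2 kb 1 gene (0.833%) had one, against 10.2% of other genes. Narrower windows, fewer peaks and subsets of genes can only give 0 where the count is 0, so they say nothing about stability. With a 250 bp window the share fell to 1.67% in the pooled list, 1.67% in replicate 2 and 2.5% in replicate 3, against 38.4, 34.7 and 38.2% of other genes. With a 1000 bp window it was 15% in replicate 2, against 54.1% of other genes. With the 0.5 of the peaks with the highest signal it was 0.833% in the pooled list and 1.67% in each replicate, against 34, 31.1 and 34.3% of other genes. Each of 47 clusters or lone genes was also counted once, as having a summit if any of its genes had one. The share of these was 14.9% in the pooled list, 10.6% in replicate 2 and 17% in replicate 3. No like count was made for other genes, so these shares cannot be set beside the shares per gene. A pooled or IDR list is made from both replicates, so without 1 of them the remaining replicate's own list stood in for the pooled list and for both replicates (5 to 8.33%), and its 1874 strongest peaks for the IDR list (0%, against 6.29 to 6.58% of other genes). With a 1000 bp window 2 genes (1.67%) had summits of both replicates within 100 bp, against 29.2% of other genes. No paired analysis was possible because there was 1 group. Unknown read depth limits what an absent peak shows: binding below the weakest of the 30000 listed peaks was not detectable.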
